A study of Caenorhabditis elegans with 2 samples.

Results

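The 10 heterochronic genes lin-4, let-7, lin-14, lin-28, lin-41, lin-29, lin-42, lin-46, hbl-1 and mab-10 time the fates of cells through the larval stages of the nematode Caenorhabditis elegans. They were taken by gene name from 46890 annotated genes on 6 chromosomes, 8 of them among 19973 protein-coding genes and 2 (lin-4 and let-7) among 261 microRNA genes. Binding of NHR-11, a nuclear hormone receptor, near them was read from ChIP-seq peak lists made from whole L4 larvae of mixed sex. The strain, OP305, has the genotype unc-119(ed3) III; wgIs305, in which wgIs305 is the insertion that supplies NHR-11 fused to eGFP, and both samples share it. There was 1 group with 2 biological replicates, and no untagged strain, input DNA or other larval stage was analysed here, so no condition could be compared. A gene's window ran from 3000 bp upstream of its annotated start to its end, and for lin-4 and let-7 from 3000 bp before to 3000 bp after the gene. A peak belonged to a gene when its summit, the position of strongest signal, lay in that window.

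Heterochronic genes form a pathway of switches in which microRNAs rise at set larval stages and silence messenger RNAs of earlier stages. lin-4 silences lin-14 and lin-28, which hold early larval fates, and let-7 and its relatives later silence lin-41 and hbl-1. Release of LIN-29 and its cofactor MAB-10 then lets the skin cells leave the larval programme at the end of L4, the stage sampled here. Each microRNA finds its targets through its seed, bases 2 to 8 of the mature strand, so genes with the same seed form a family.

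The mature strands of both microRNA members and of 4 related microRNAs fall into 2 seed families, and they are shown because peaks near the relatives are described later. They were read from the C. elegans genome (ce11, RefSeq sequence) at the Ensembl coordinates of the mature strands, 5′ to 3′, with the seed in capitals.
lin-4: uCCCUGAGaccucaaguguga
mir-237: uCCCUGAGaauucucgaacagcu
let-7: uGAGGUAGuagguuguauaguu
mir-48: uGAGGUAGgcucaguagaugcga
mir-84: uGAGGUAGuauguaauauuguaga
mir-241: uGAGGUAGgugcgagaaauga
lin-4 and mir-237 shared the seed CCCUGAG, and let-7, mir-48, mir-84 and mir-241 shared GAGGUAG. The DNA under some NHR-11 peaks of 5 members is shown, as 101 bases of the plus strand of ce11 centred on a summit, 5′ to 3′. Peaks of lin-28, lin-41 and lin-46 and the other lin-14 peaks are not shown. Among them is the second strongest member peak, at lin-41. Capitals mark matches on either strand to any of 6 short motifs that were searched.
let-7 upstream peak, chrX:14747114-14747214: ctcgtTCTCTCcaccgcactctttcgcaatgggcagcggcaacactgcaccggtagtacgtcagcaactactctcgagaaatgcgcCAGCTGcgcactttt
lin-14 strongest intron peak, chrX:11472107-11472207: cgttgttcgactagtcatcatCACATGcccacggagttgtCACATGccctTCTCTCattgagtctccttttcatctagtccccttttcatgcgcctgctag
lin-14 intron peak, chrX:11469826-11469926: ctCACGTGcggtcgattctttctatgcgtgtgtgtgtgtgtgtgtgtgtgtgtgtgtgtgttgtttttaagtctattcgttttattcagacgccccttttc
hbl-1 upstream peak, chrX:5820199-5820299: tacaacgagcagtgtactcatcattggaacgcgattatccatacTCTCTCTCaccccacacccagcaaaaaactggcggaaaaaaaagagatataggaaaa
lin-42 intron peak, chrII:1246958-1247058: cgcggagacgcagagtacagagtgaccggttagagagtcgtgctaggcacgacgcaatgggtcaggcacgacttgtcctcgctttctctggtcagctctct
mab-10 upstream peak, chrII:10527803-10527903: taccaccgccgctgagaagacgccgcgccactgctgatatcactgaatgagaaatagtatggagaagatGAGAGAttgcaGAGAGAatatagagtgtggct
The let-7 window and the strongest lin-14 window held both E-box letters (CANNTG) and GAGAGA or its reverse complement. The other lin-14 window held an E-box alone, the hbl-1 and mab-10 windows held GAGAGA or its reverse complement alone, and the lin-42 window held none of the motifs. GAGAGA is more frequent in these printed windows than in all 16 member windows, where 5 (31.2%) held it, against 30.4% of all thresholded windows.

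The deposited lists held 2719 peaks that passed the authors' reproducibility threshold (thresholded peaks), 13558 peaks and background regions of the pooled replicates, 19074 regions of replicate 1 and 22137 of replicate 2. Each peak carries a signal value set by the authors' software, whose scale no source states. Read counts were not among the values, which leaves library depth unknown. Every pooled peak with a signal of 54.9 or more was a thresholded peak, the median thresholded signal was 83.9 and the largest was 1108. Rank 1 is the strongest peak of a list. Because the pooled list includes background regions, an entry below the threshold need not be a peak, although it is called a pooled summit or peak here. The window of nhr-11, the tagged gene, held no summit in any of the 4 lists. The window of unc-119, the gene mutated in this strain, held 1 thresholded summit with a signal of 126.3. Because whole larvae were used, binding in few cells and weak binding in many cells cannot be told apart.

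NHR-11 peaks lay near most of the timing genes. A thresholded summit was in the window of 8 of the 10 genes, and lin-4 and lin-29 had none. Of the coding members, 7 of 8 had a thresholded summit, where 15.5% of all protein-coding genes had one, and of the microRNA members 1 of 2 did, where 26.1% of microRNA genes did. A summit of the pooled list, which includes background regions, was near 9 of 10 genes. Such a summit was near 7 of 8 coding members, against 48.0% of all coding genes, and both microRNA members, against 63.6% of microRNA genes. These shares describe genes that were chosen by name with results of these data known, and no test was made on them.

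Longer windows hold more summits, so the members were also set beside genes with windows of like length. lin-46, whose window was under 5000 bp, had a thresholded summit, as 11.4% of coding genes in that class did. lin-28, hbl-1 and mab-10, with windows of 5000 to under 10000 bp, all had one, where the class had 17.1%. lin-41 had one in the class of 10000 to under 20000 bp, where 27.8% did. Of the 3 members with windows of 20000 bp or more, lin-14 and lin-42 had one and lin-29 did not, and 39.3% of that class did. The 8 coding members held 1.42 thresholded summits per 10 kb of window, against 0.303 over all coding genes, and the value without lin-14 was 0.849.

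**Figure D1:**
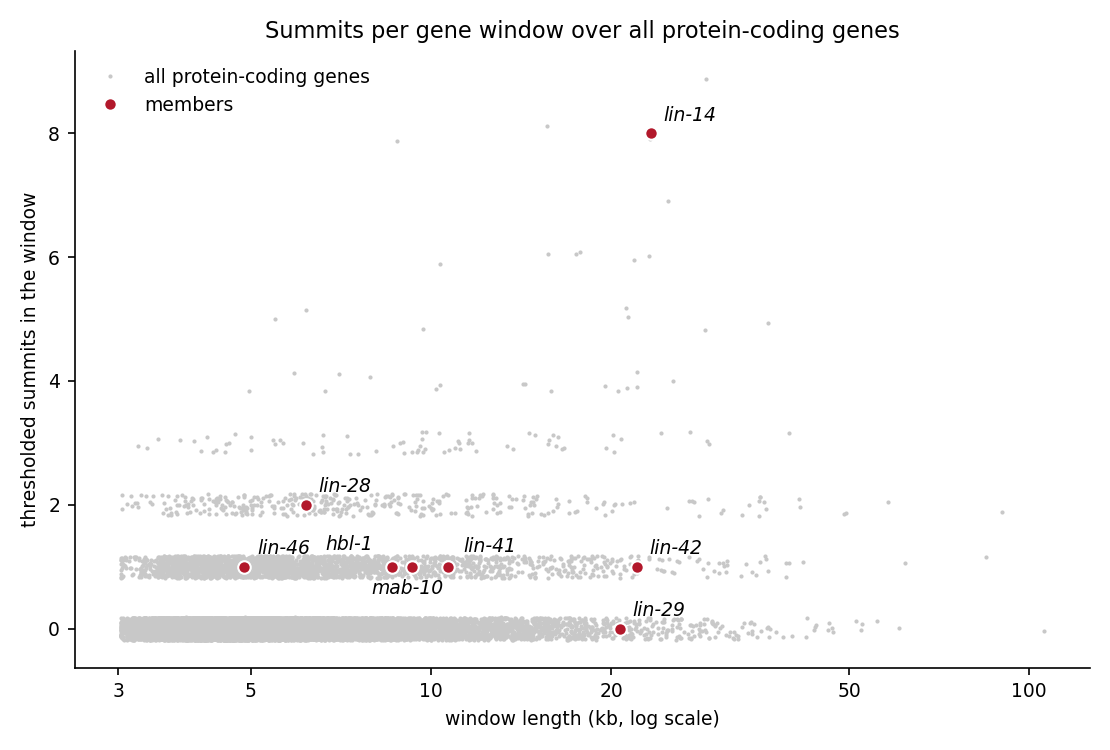
Number of thresholded summits in a gene's window (vertical axis, grey points spread slightly for sight) against window length in kb (horizontal, log scale) for 19973 protein-coding genes in grey and the 8 coding members in red. lin-14 sits at 8 summits over the point of T28B11.1, lin-28 at 2, lin-29 at 0, and the other 5 at 1.

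The 16 thresholded summits of the members were uneven in number and strength. lin-14 held 8 of them, lin-28 held 2, and let-7, lin-41, lin-42, lin-46, hbl-1 and mab-10 held 1 each. They lay upstream of the gene in 8 cases and in introns in 8, with 0 in exons. Signals ran from 55.5 to 216 with a median of 79.0, so they were of ordinary strength for the list, with 7 above and 9 below its median. Of the 8 summits outside lin-14, 6 were upstream and 2 were in introns.

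lin-14 encodes a nuclear protein that holds the fates of the first larval stage and is the classic target of lin-4. The gene lies at X:11465560-11485871 on the plus strand, and its window held 21 pooled summits, of which 16 were in introns, 4 upstream and 1 in the 3′ UTR. The strongest thresholded summit, at position 11472157 in an intron 6597 bp downstream of the start, had a pooled signal of 215.5 (rank 164), a signal of 101.1 in replicate 1 (rank 203) and of 112.0 in replicate 2 (rank 152). It was the strongest peak of any member in the pooled list and in each replicate list.

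The summit 1008 bp upstream of the lin-14 start had a pooled signal of 106.3, with 57.38 in replicate 1 and 55.81 in replicate 2. The summit 62 bp upstream of the start, the nearest to it, had a pooled signal of 59.45, with 36.87 in replicate 1 and 16.66 in replicate 2. Replicate 2 also listed a summit 253 bp upstream of the start with a signal of 33.84 (rank 2133), which lay 3 bp outside the pooled interval and was not counted for it. The replicate 2 summit of 16.66 was a separate one, 9 bp from the pooled summit.

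Inside the gene, the summit 1920 bp downstream of the start had a pooled signal of 93.98, with 45.43 in replicate 1 and 49.06 in replicate 2. The summit at 4316 bp, whose window holds the palindromic E-box CACGTG, had a pooled signal of 83.55, with 43.48 in replicate 1 and 34.77 in replicate 2. Both lie, with the strongest summit, in introns of the long isoform T25C12.1a.1. The summit at 8006 bp had a pooled signal of 66.33, with 29.55 in replicate 1 and 35.92 in replicate 2. The summit at 9201 bp had a pooled signal of 71.57, with 47.47 in replicate 1 and 27.51 in replicate 2. Neither replicate was the higher throughout, since replicate 1 gave the larger value at 5 of the 8 lin-14 summits.

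The last lin-14 summit stood apart from the others, 17293 bp downstream of the start and 2492 bp downstream of the start of the short isoform T25C12.1b.1. Its pooled signal of 55.48 (rank 2666) was just inside the threshold, with 32.69 in replicate 1 and 24.58 in replicate 2. The first 7 thresholded summits spanned 10209 bp and all 8 spanned 18301 bp. Gaps between neighbours ran from 946 to 8092 bp with a median of 1982 bp, so the peaks are spaced along the gene rather than stacked at its start.

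**Figure D2:**
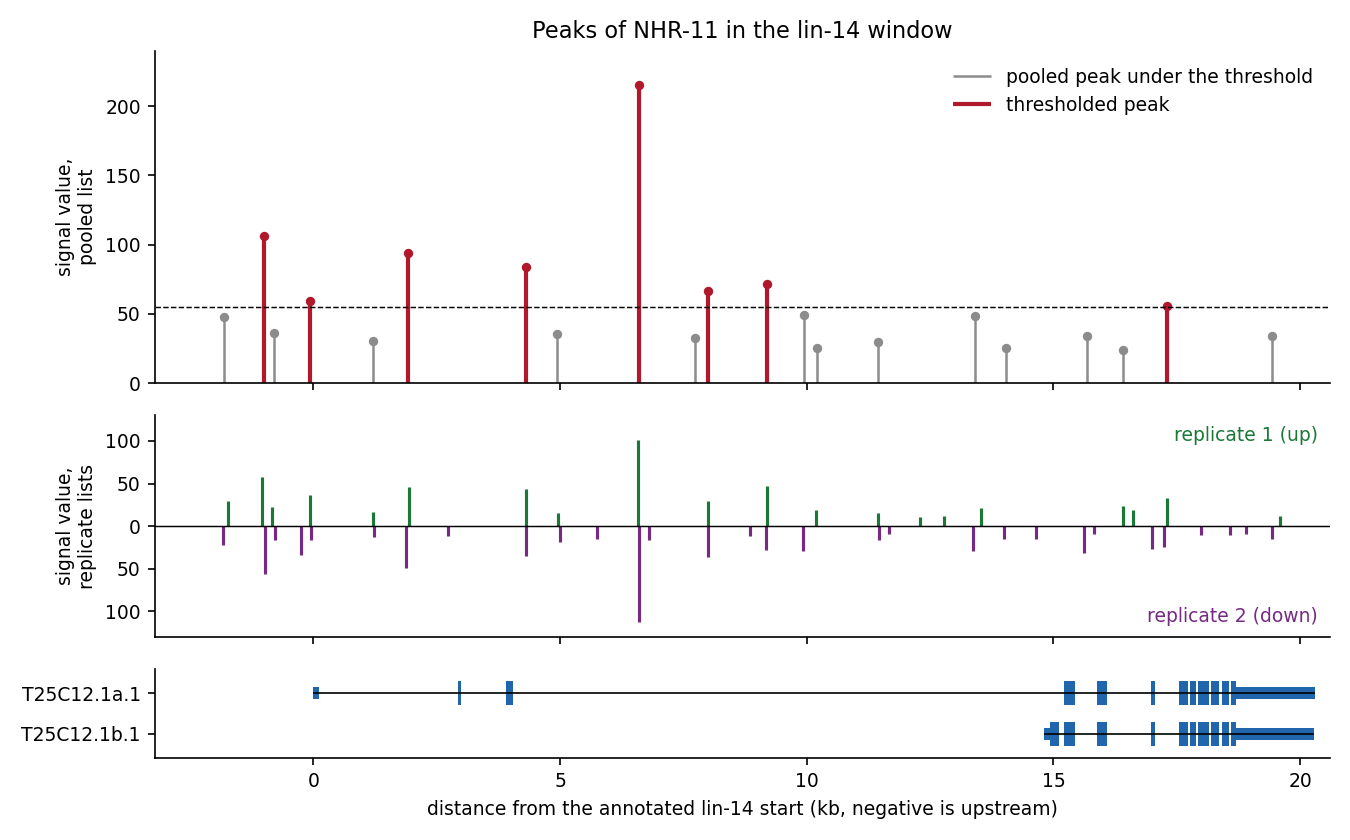
Peaks in the lin-14 window by distance from the annotated start in kb (horizontal axis). The upper panel gives the signal value of pooled peaks, thresholded in red and below the threshold in grey, with the dashed line at the smallest thresholded signal of 54.9. The middle panel gives replicate 1 upward and replicate 2 downward, and the lower panel the 2 isoforms with coding exons as tall boxes. The strongest peak of both replicates is at the same place, 6597 bp into the gene.

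Few genes in the genome had so many peaks. Of the coding genes, 3094 had a thresholded summit and 2604 of them had exactly 1. Only 5 had 8 or more in their windows, namely ppfr-1 with 9 and T28B11.1, W06H8.6, mnk-1 and lin-14 with 8 each, and none of the other 4 shared a summit with lin-14. Below the threshold, lin-14 held 13 further pooled summits with signals of 24.1 to 49.0. Their deposited −log10 q values ran from 0.0871 to 1.68, where the largest in the pooled list was 3.52, so background regions may be among them. A summit of both replicates lay inside 7 of those 13 intervals, of 1 replicate inside 5, and of neither inside 1. For the 15 pooled summits below the threshold in the other members, it was both replicates for 6 and 1 replicate for 9. Among those 6, the summits 1675 bp upstream of hbl-1 and 605 bp upstream of lin-46 had no replicate 1 summit of their own. Theirs was also counted for the thresholded neighbour, whose interval overlaps.

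lin-28 encodes an RNA-binding protein that holds second-stage fates and blocks the maturation of let-7. The gene lies on chromosome I at positions 8407630 to 8410804 on the minus strand, with a window that held 2 thresholded summits and 1 weaker pooled summit. The stronger summit, 865 bp inside the gene in an intron of the long isoform, had a pooled signal of 111.7 (rank 804), with 61.15 in replicate 1 and 51.87 in replicate 2. It lay 19 bp upstream of the start of the short isoform F02E9.2b.1. The other, 483 bp upstream of the gene, had a pooled signal of 100.2, with 49.06 in replicate 1 and 47.98 in replicate 2. Each of the 2 annotated lin-28 isoform starts thus had a peak upstream of it in both replicates, and the pooled signals of these peaks were similar.

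lin-41 encodes a TRIM-NHL protein that represses messenger RNAs, among them those of lin-29 and mab-10, until let-7 silences it. The gene lies on chromosome I at positions 9334800 to 9342496 on the minus strand. Its summit 1523 bp upstream of the start had a pooled signal of 161.7 (rank 354), with 78.62 in replicate 1 and 80.71 in replicate 2, and rank 383 in both replicate lists. This was the second strongest member peak in the pooled list and the steadiest in rank between replicates. A weaker pooled summit, 685 bp upstream with a signal of 21.74 (rank 13441) and a −log10 q value of 0.0196, lay near the bottom of the pooled list.

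hbl-1 encodes a zinc finger transcription factor related to Hunchback of Drosophila, and is a target of the let-7 family. The gene lies at X:5822142-5827755 on the plus strand. Its thresholded summit, 1893 bp upstream of the start, had a pooled signal of 73.19 (rank 1695), with 35.52 in replicate 1 and 38.08 in replicate 2. Weaker pooled summits lay 1675 bp upstream, with a signal of 30.85, and 1011 bp upstream, with 34.43. All 3 were upstream, and the hbl-1 gene body held none.

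let-7, the microRNA that rises late and triggers the larval-to-adult switch, is annotated with its primary transcripts at X:14743590-14745321 on the minus strand. The thresholded summit, at position 14747164 and 1843 bp upstream of the longest transcript, had a pooled signal of 127.1 (rank 622), with 52.32 in replicate 1 and 75.12 in replicate 2. The summit was 2909 bp upstream of the 5′ end of the mature strand, and it was nearer to C05G5.2, a coding gene on the opposite strand, whose start was 139 bp away. A pooled summit below the threshold, with a signal of 36.68 (rank 5068), lay inside the primary transcript, 339 bp upstream of the mature strand. The stronger peak therefore lies between 2 divergent genes and cannot be given to either from these lists.

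lin-4, the microRNA that ends the first-stage programme, lies at II:5902254-5902347 inside the coding gene F59G1.4 on the same strand. Its only pooled summit, 322 bp upstream of the hairpin and 337 bp upstream of the mature strand, had a signal of 44.71 (rank 3738), below the threshold. A summit of replicate 1 with a signal of 27.20 (rank 2819) and a summit of replicate 2 with a signal of 22.42 (rank 4112) lay in the same interval. A region was thus listed just upstream of lin-4 in both replicates, with a pooled signal under the threshold.

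lin-42 encodes a protein related to Period of the circadian clock, whose RNA rises and falls with each molt. The gene lies at II:1233236-1252359 on the minus strand with 7 annotated transcripts. Its thresholded summit, in an intron 5351 bp downstream of the outermost start and 2973 bp upstream of the start of F47F6.1b.1, had a pooled signal of 74.54 (rank 1656), with 40.65 in replicate 1 and 34.21 in replicate 2. The other 6 pooled summits, between 10819 and 18386 bp downstream, had signals of 22.74 to 39.35. No pooled summit lay in the 3000 bp upstream of lin-42, so this gene was called from its body alone.

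lin-46 encodes a scaffold protein related to gephyrin that acts opposite to lin-28. The gene lies at V:12968855-12970730 on the plus strand. Its thresholded summit, 850 bp upstream, had a pooled signal of 73.35 (rank 1693), with 30.07 in replicate 1 and 40.07 in replicate 2. A neighbouring pooled summit 605 bp upstream fell just below the threshold, with a signal of 54.08 (rank 2788), and replicate 1 listed 1 summit between these 2 that was counted for both. The thresholded summit was 23 bp upstream of R186.8, a coding gene on the opposite strand, so as for let-7 it lies between divergent genes.

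mab-10 encodes a cofactor of LIN-29 in the larval-to-adult switch. The gene lies at II:10528084-10534380 on the plus strand. Its thresholded summit, 231 bp upstream of the start, had a pooled signal of 73.49 (rank 1689), with 34.98 in replicate 1 and 35.61 in replicate 2. Among the 6 members with 1 thresholded summit it was the nearest to its gene's start, and its replicate signals were nearly equal.

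lin-29, the zinc finger transcription factor at the end of the pathway, lies at II:11917642-11935343 on the minus strand and was the member without any pooled summit. Replicate 1 listed a region 2799 bp upstream with a signal of 15.03 (rank 8746). Replicate 2 listed regions 16607 bp and 1097 bp inside the gene, with signals of 14.39 (rank 8964) and 12.37 (rank 12171). No place near lin-29 was listed in both replicates. LIN-29 and MAB-10 act together, and their genes differed here, with a thresholded peak at the start of mab-10 and none near lin-29.

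**Figure D3:**
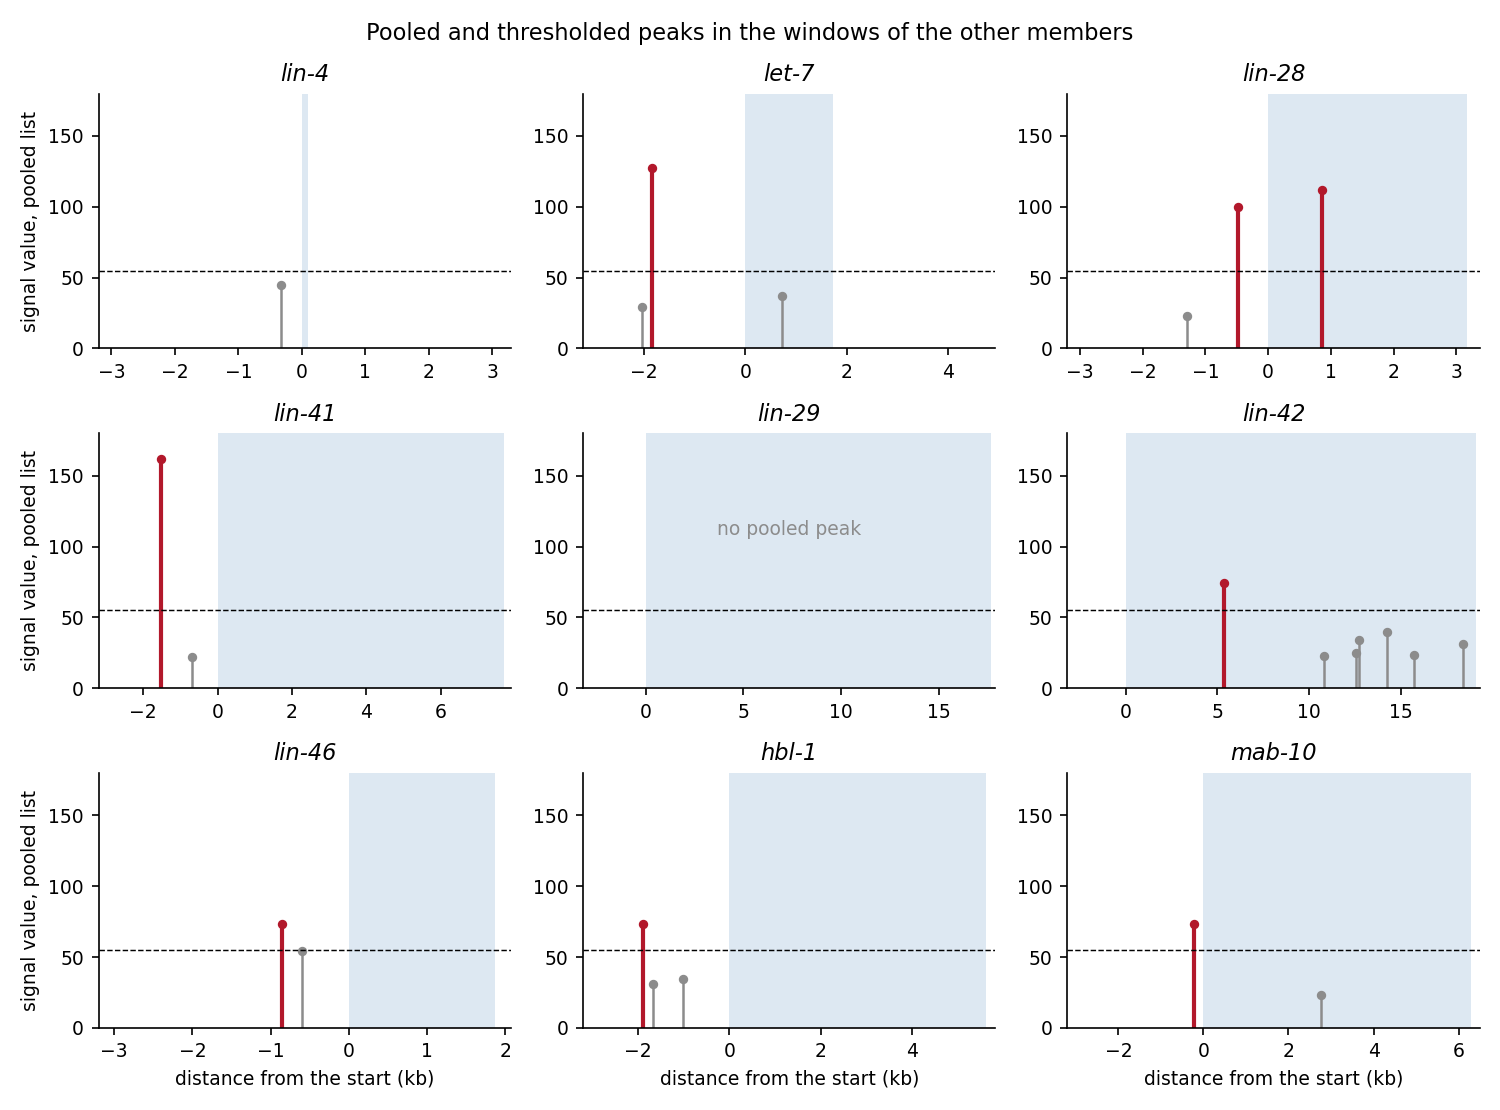
Signal value of pooled peaks (vertical axis, thresholded in red, below the threshold in grey) by distance from the gene's start in kb (horizontal) in the windows of the 9 members other than lin-14. Blue shading is the gene and the dashed line the smallest thresholded signal of 54.9. Peaks of let-7, lin-41, hbl-1, lin-46 and mab-10 stand upstream, the lin-42 peak stands inside the gene, and lin-29 has none.

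The thresholded list was itself selected for reproducibility, and 2700 of its 2719 intervals held a summit of both replicates. All 16 member peaks were among these, as nearly all peaks of the list were. The pooled summit and the replicate summit lay a median of 10.5 bp apart for replicate 1 and 8.50 bp for replicate 2, with largest gaps of 140 and 51 bp. Only the strongest replicate summit inside the 376 bp pooled interval was measured. The interval thus bounds these gaps, and they do not measure how well the replicates agree in position. Among the strongest 2719 regions of replicate 1, all 16 were found, and among those of replicate 2, 13 were. The 3 that missed were lin-14 peaks, 62, 9201 and 17293 bp from the start, and for the first of them the replicate 2 summit of rank 2133 lay 3 bp beyond the interval. Over all thresholded peaks, 1986 of 2719 (73.0%) were among the strongest 2719 of both replicates. With the strongest 2719 regions of either replicate alone, the same 8 members had a summit. Of coding genes, 15.2% had one in replicate 1 and 15.4% in replicate 2, and of microRNA genes 24.5% and 25.7% did.

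**Figure D4:**
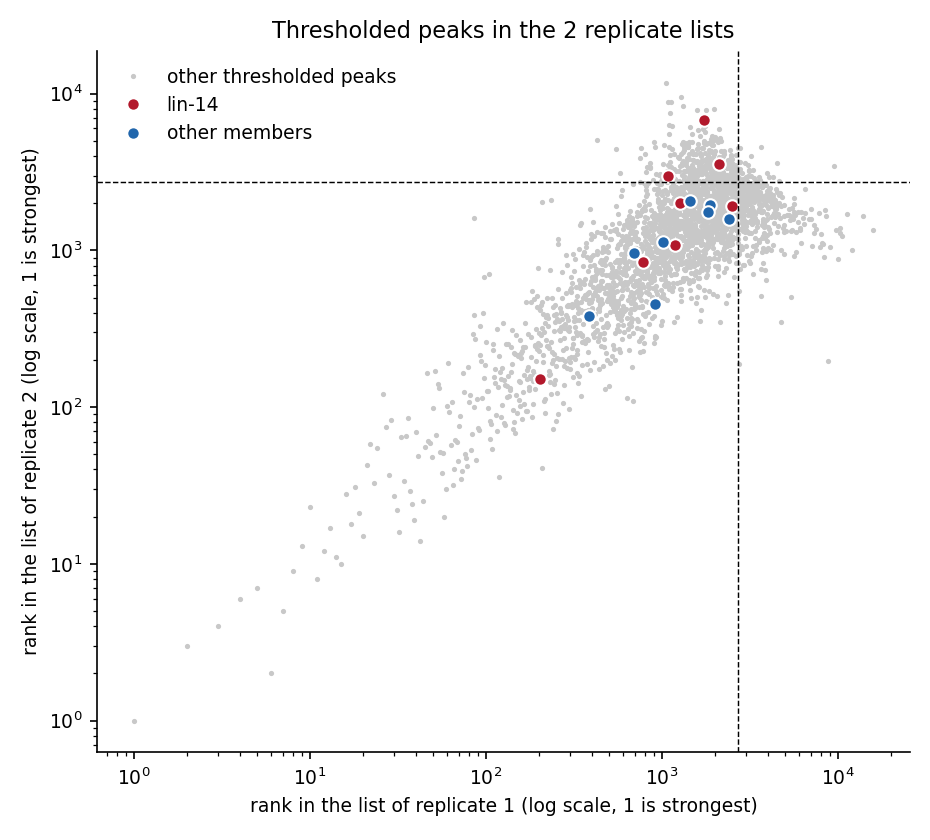
Rank of thresholded peaks in replicate 1 (horizontal axis) and replicate 2 (vertical), both log scales with rank 1 the strongest, for peaks whose interval held a summit of both replicates. Grey points are other genes' peaks, red points lin-14 and blue points the other members, and dashed lines mark rank 2719. The member points lie within the grey cloud, and 3 of lin-14 lie above the horizontal line.

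Member peaks were also read by chromosome and by nearest gene start, and lin-14 held most of those on X. The 3 members on X (let-7, lin-14 and hbl-1) held 10 of the 16 summits, 8 of them from lin-14, and 21.1% of all thresholded summits (575) were on X. With each gene given its outermost annotated start alone, the nearest start was that of the member for 13 of the 16. The exceptions were the let-7 peak, the lin-46 peak and the last lin-14 peak, which was 4931 bp upstream of spp-9 but only 2492 bp from the start of the short lin-14 isoform. Summits inside the gene made 53.3% of those of the coding members, against 23.2% over all coding genes, and 28.6% (2 of 7) without lin-14.

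The bases around member summits were set beside those around all thresholded summits, as a description with no test. GC content of the 101-base windows had a median of 45.0% (39.6% to 58.4%) in the 16 member windows and 46.5% over all 2719. The hexamer AGGTCA, a core letter string of many nuclear receptor sites, was in 0 of 16 member windows and in 2.65% of all. Of the strings that the receptor DAF-12 reads, AGTGCA was in 0 of 16, against 5.33%. The other, written AGTTCA, was in 1 of 16 (6.25%), against 3.71%, and this match was in the lin-14 window 62 bp upstream of the start. GAGAGA was in 5 of 16 (31.2%), against 30.4%, and CANNTG, the E-box, in 9 of 16 (56.2%), against 43.5%. TGATAA, bound by factors with GATA-type zinc fingers, was in 0 of 16 and in 7.17% of all windows. Both strands were searched, and none of the strings contains another. A match is a description of letters and not of a binding site.

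Other genes of the timing pathway were read in the same way from a list of 31. A thresholded summit was near 14 of them, 11 of 26 coding genes and 3 of 4 microRNAs, against the 15.5% and 26.1% given above. A pooled summit was near 28, the noncoding RNA gene lep-5 among them. These included 23 of 26 coding genes and 4 of 4 microRNAs, where 48.0% of all coding genes and 63.6% of all microRNA genes had one. By role, the 14 were 3 of 4 microRNAs, 3 of 7 genes of microRNA processing and action, 3 of 9 transcription factors, 4 of 6 other regulators and 1 of 5 genes that act downstream.

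Of the microRNAs that share the let-7 seed, mir-84 had a summit 2324 bp upstream with a signal of 186.1 (91.16 in replicate 1 and 90.51 in replicate 2), nearer to the start of mboa-1. mir-48 and mir-241 shared 1 summit, at V:14366684, with a signal of 99.60 (48.71 and 51.78), and it was nearer to the start of unc-39. The 4 microRNAs shown above with the seed GAGGUAG had a thresholded summit in the window, where 26.1% of all microRNA genes did. They had it through 3 distinct summits, and for each summit a coding gene's start was nearer. The seeds of other microRNA genes were not read. mir-237, which shares the lin-4 seed, had its strongest pooled summit at 53.84, just below the threshold, and neither it nor lin-4 had a thresholded summit.

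Among genes of microRNA action, ain-1, a GW182-like partner of Argonaute, had summits of 225.6 and 59.20 at 966 and 764 bp upstream. nhl-2, a TRIM-NHL cofactor of microRNA silencing, had a summit of 459.2 (rank 14) 837 bp upstream, nearer to tag-340, and xrn-2, an exonuclease, had a summit of 199.2 nearer to Y48B6A.1. alg-1, alg-2, dcr-1 and pup-2 had no thresholded summit. The nhl-2 peak and the stronger ain-1 peak had a larger signal than any member peak.

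Among the transcription factors, myrf-1 had summits of 235.2 and 132.0, the former also above every member peak, sea-2 of 105.8 and 83.21, and daf-12, the steroid receptor that gates the let-7 family, of 72.59 and 63.29. The interval of the stronger daf-12 summit held no summit of replicate 2, whose nearby summit, with a signal of 48.31 (rank 1108), lay 39 bp beyond it and inside the interval of the weaker one. The daf-12 summits, the sea-2 summits and the weaker myrf-1 summit were in introns. nhr-23, nhr-25, nhr-85, blmp-1, rnt-1 and bro-1 had none, although the strongest nhr-85 pooled peak, at 54.03, was just under the threshold.

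Of the other regulators, puf-9, a Pumilio-family RNA-binding protein, had a summit of 549.8 (rank 8) 291 bp upstream, with rank 11 in replicate 1 and rank 8 in replicate 2. kin-20, a casein kinase that acts with LIN-42, had summits of 159.1 and 101.3 in introns, lin-66 had 138.6 at 346 bp upstream, and dre-1, an F-box protein, had 63.99 in an intron, nearer to hpo-26 by outermost starts. lep-2 and lep-5 had none. The puf-9 peak was the strongest near any timing gene read here, above all 16 member peaks. Among downstream genes, let-60, the Ras gene that let-7 silences, had a summit of 84.58 that was nearer to ZK792.12, and col-19, apl-1, mab-3 and dmd-3 had none.

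**Figure D5:**
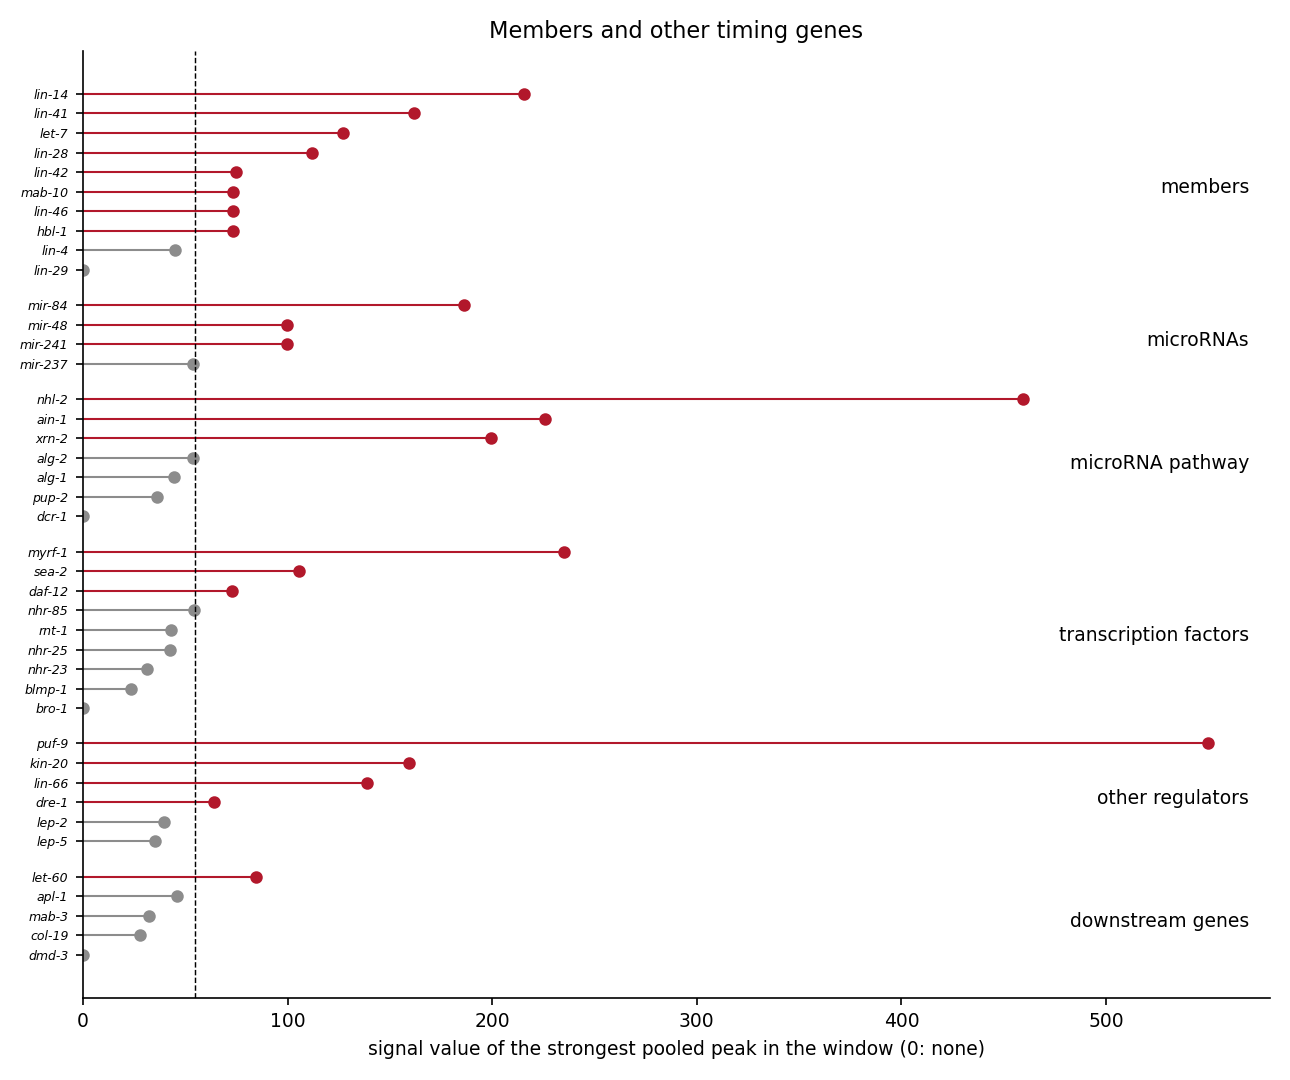
Signal value of the strongest pooled peak in the window (horizontal axis) for the 10 members and 31 other timing genes grouped by role, red where a thresholded summit was in the window, grey where none was, and at 0 where no pooled summit was listed. The dashed line is the smallest thresholded signal of 54.9. puf-9 at 549.8 and nhl-2 at 459.2 stand above every member.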

How the data were processed

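NHR-11 fused to eGFP was profiled by ChIP-seq in 2 biological replicates of whole L4 larvae. Per the texts deposited with the files, the authors called peaks and background regions on each replicate and on both together, with a further file whose use is not stated. They derived the thresholded list by irreproducible discovery rate. No aligner, caller or threshold is given in the sources used here. The signal value deposited for each peak is a score whose scale no source states. Many strong peaks tie at the largest −log10 q value deposited, 3.52 in the pooled list, so ranks follow the signal. Summit positions were taken from the deposited offsets. Lists in ce11 were used and the same lists in ce10 were not.

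Genes came from Ensembl release 115 (WBcel235, the sequence of ce11) and sequence from RefSeq. lin-4 and let-7 were matched by WormBase identifier. Windows, motif counts (50 bp on either side of a summit) and ranks were computed with Python 3.11.15, numpy 2.4.6 and pandas 2.3.3, and tested on simulated data. Named were all members, nhr-11, unc-119, genes whose start was nearest to a summit, and the other timing genes, with or without a thresholded summit. The members, lists and motifs were chosen with earlier results of these data known, so no test was made. Coding genes with at least as many summits as lin-14 were named after their values were seen. Alternatives were other reaches of the window, other peak positions, stronger peaks, nearest starts and each replicate alone.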

Additional observations from a re-analysis of the deposited data

How the results depend on the processing

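Of 36 alternative counts, 31 stayed within 1.5 times the reported value. With 1000 bp upstream in place of 3000, 5 members kept a thresholded summit and let-7, lin-41 and hbl-1 lost it. That left 5 of 8 coding members against 10.6% of coding genes, and 0 of 2 microRNA members against 13.0% of microRNA genes. With the stronger 1359 thresholded peaks alone, 4 members (let-7, lin-14, lin-28 and lin-41) had a summit, with 7 summits in all. They were 3 of 8 coding members against 8.62% of coding genes, and 1 of 2 microRNA members against 18.0% of microRNA genes. With the upstream part of the window alone, the thresholded summits of the members numbered 8 and the pooled summits 18, since peaks inside the coding genes dropped out. A thresholded summit was then near 6 of 8 coding members against 13.1% of coding genes, and a pooled summit near 6 of 8 against 38.8%. The microRNA windows were unchanged, with 1 of 2 members against 26.1% for thresholded summits and 2 of 2 against 63.6% for pooled summits. With summits given to the nearest start alone, 6 members and 13 summits remained, all 6 of them coding, without let-7 and lin-46, while 9.59% of coding genes had one. With either replicate left out, 8 members had a summit among the strongest regions, with 17 summits in both cases, and in lists as long as the pooled list all 10 members had one, lin-29 included, with 40 to 50 summits. In those long lists 48.3% (without replicate 1) and 48.8% (without replicate 2) of coding genes and 62.1% and 65.1% of microRNA genes had one.

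The lists give no read counts and therefore no counting interval for any peak, and a gene without a peak is not shown to be unbound. With 2 replicates of 1 group and no control or other stage analysed here, no peak was compared with a background measured in the same way. No paired analysis was possible because there was 1 group.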
